A study of Homo sapiens with 4 samples.

Results

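Radiation given on top of QTP was examined by setting 1 single-cell RNA library of cells that received both (Drug_Radiation) against 1 library of cells that received QTP alone (Drug). The members are the cells of both libraries with under 20% of their UMIs (unique molecular identifiers, here counted molecules) from mitochondrially encoded genes. These were 6990 cells of Drug_Radiation and 3802 of Drug, together 10792 of the 16400 cells kept in the series. The cells are MSTO-211H, a human pleural mesothelioma line, labelled WT, with no gene given for that genotype. They were grown without serum in suspension with EGF, bFGF and heparin, and the series' design text calls them mesothelioma-initiating cells. QTP is the agent in a series whose title speaks of blocking dopamine receptors, and it was present at 10 µM in both groups compared here, so every difference below lies between QTP-treated cells. Drug_Radiation was irradiated with 4 Gy on the day after QTP was added and collected 48 h later, and Drug was not irradiated. The same ratio without QTP, Radiation (vehicle and 4 Gy) over Control (vehicle), is given in places, and it shares no library with the comparison described.

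Each group was 1 library, from cells pooled after dissociation, and the labels do not say from how many flasks. No difference here therefore has a replicate check, and no test across genes was possible. All intervals are at 95% and cover counting error only. Drug held 87195885 UMIs of nuclear-encoded genes and Drug_Radiation 141608005, with medians of 20405 and 18024.5 UMIs and of 4409 and 3954 genes per cell. Control and Radiation were shallower, with medians of 2318 and 5299 UMIs per cell. Orders of all 4 libraries and ratios without QTP therefore also span a difference in depth, whose part was not tested. No cell barcode was shared between libraries. The libraries differed in make-up beyond single pathways: the median mitochondrial share was 4.01% in Drug and 5.17% in Drug_Radiation, and ribosomal protein genes made up 27.95% and 32.1% of nuclear UMIs. Of 19 mesothelial and keratin markers 8 were measured. KRT8 was at 2215 CPM in Drug and 2252 CPM in Drug_Radiation and VIM (vimentin) at 2816 and 3166 CPM. CALB2 (calretinin) was at 49.2 and 32.1 CPM, MSLN (mesothelin) at 13.2 and 14.05 CPM and WT1 at 1.86 and 1.89 CPM. None of 8 endothelial and none of 8 lung epithelial markers reached 5 CPM, and CD68 alone did so of 14 blood cell markers. Of 7 neural markers 3 did, MBP, SNAP25 and SYT1, with 90.15 CPM in Drug and 77.3 CPM in Drug_Radiation summed over the list. The blood marker FCGR3A had no UMI in either library.

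Ionizing radiation breaks both DNA strands, and the kinases that sense the breaks stabilize the transcription factor p53. p53 switches on inhibitors of the cell cycle such as CDKN1A (p21), its own antagonist MDM2, and genes of cell death and repair. p21 blocks cyclin-dependent kinases, which leaves repressor complexes on the promoters of S phase and mitosis genes. Many promoters of mitosis genes carry an element called CHR, with the core letters TTTGAA, often downstream of CCAAT boxes that bind the factor NF-Y, and the DREAM and MuvB complexes act through the CHR.

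Levels are the UMIs of a gene in a whole library, given as counts per 1000000 UMIs of nuclear-encoded genes (CPM). Ratios are log2 of CPM plus 1, Drug_Radiation over Drug. Among the 5570 genes with at least 20 CPM in either library the median ratio was -0.18, so a typical gene was slightly lower in Drug_Radiation. Of these, 47 genes (0.844%) were at least 1.5-fold higher and 133 (2.39%) at least 1.5-fold lower in Drug_Radiation. At 2-fold the counts were 15 (0.269%) and 7 (0.126%). Relative to the median gene the split turned, with 89 genes (1.6%) at least 1.5-fold higher and 31 (0.557%) lower, and TMM scaling gave 89 and 32. For gene lists, the minimum was 5 CPM, which 10305 genes reached with a median of -0.14. A list's relative median is its median ratio minus that value. In the plot of ratio against level, division genes form the lower edge and ribosomal protein genes the right-hand arm.

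**Figure D1:**
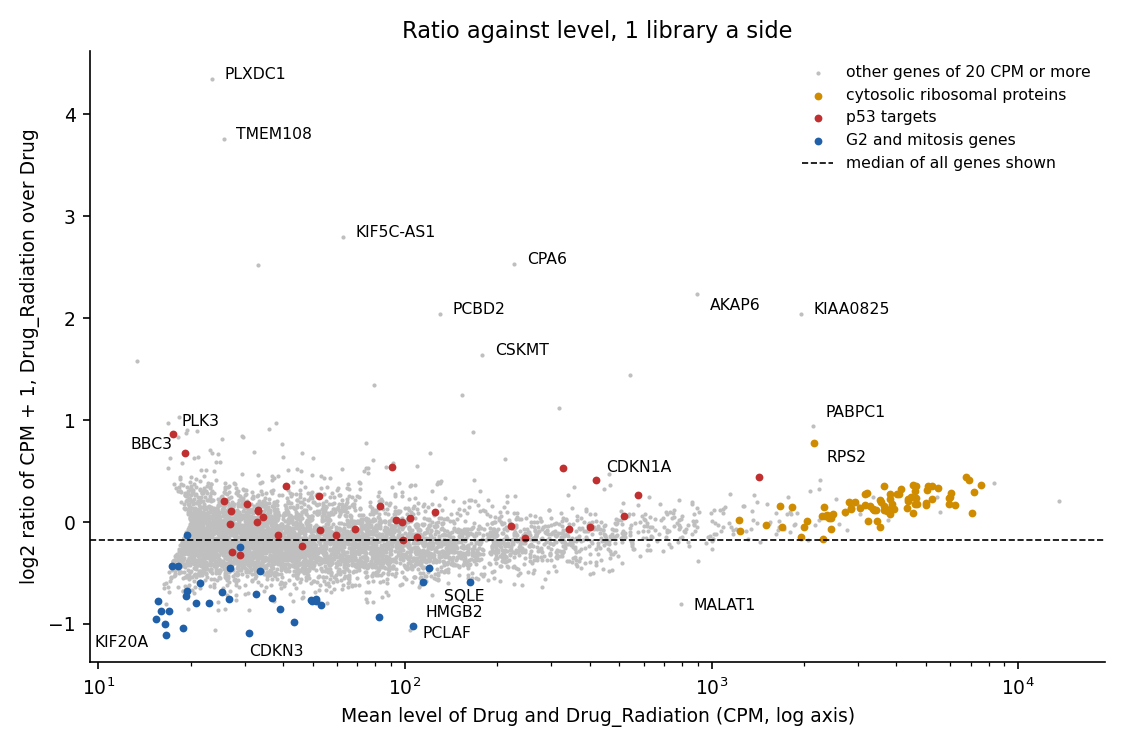
Each point is 1 of the 5570 genes with at least 20 CPM, with the mean level of both libraries (CPM, log axis) across and the log2 ratio of CPM plus 1, Drug_Radiation over Drug, upward. The dashed line is the median of -0.18, G2 and mitosis genes lie mostly below it, ribosomal protein genes mostly above it, and PLXDC1 has the highest ratio at 4.35.

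Targets of p53 were higher in Drug_Radiation relative to other genes, by a modest amount. Of 65 listed targets 58 were measured, and 47 of these were above the all-gene median and 11 below it. Their relative median was 0.18, and it was 0.19 in Radiation over Control. Before the all-gene medians of -0.14 and 0.12 were taken off, the list medians were 0.04 and 0.31. At 1.5-fold, 2 of the 58 were higher and 1 was lower, where 0.786% and 2.25% of all 10305 genes were. In Radiation over Control, 19 of 53 were higher and 1 was lower. There, 14.8% and 3.45% of 4818 genes of at least 20 CPM were. With no minimum level the relative median of the list was 0.051.

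Among the arrest genes, CDKN1A, on chromosome 6 from 36676460 to 36687339 (GRCh38), had 359 CPM in Drug and 478 CPM in Drug_Radiation, against 172 CPM in Control and 393 CPM in Radiation. Control was the lowest of the 4 libraries and Drug_Radiation the highest, but cells of Control and Radiation were shallower. Within Drug, CDKN1A had 258.5 CPM in cells of 6000 to 12000 UMIs and 423.6 CPM in cells of 35000 or more. The log2 ratio of CDKN1A was 0.41 (0.39 to 0.43) with QTP and 1.19 without. PLK3, a stress-activated kinase, had 12.2 CPM in Drug and 22.9 CPM in Drug_Radiation, a log2 ratio of 0.86 (0.81 to 1.01). PCBP4, an RNA-binding protein, had 0.48, and TP53INP1, which promotes p53 activity, had 0.41. Of the 15 measured arrest genes 13 lay above the all-gene median, with a relative median of 0.25. GTSE1, which sits on the list as a p53-regulated gene but is itself made in G2 phase, was lower, with a ratio of -0.85.

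MDM2, the ubiquitin ligase that degrades p53, had 73.6 CPM in Drug and 108 CPM in Drug_Radiation. Its ratio was 0.54 (0.51 to 0.59), and it was 0.59 without QTP. PPM1D, the phosphatase that resets the damage signal, had 0.28, and RPS27L, a ribosomal-protein-like regulator of MDM2, had 0.45. Without QTP, PPM1D had -0.26 and RPS27L -0.14. Of 10 feedback genes 8 lay above the all-gene median, with a relative median of 0.30. Without QTP 5 of 9 lay above and 4 below, with a relative median of 0.15. RCHY1, another p53 ubiquitin ligase, had -0.33.

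Death genes were less uniform. BBC3, which encodes the BH3-only protein PUMA, had 14.5 CPM in Drug and 23.8 CPM in Drug_Radiation, a ratio of 0.68 (0.62 to 0.81). PIDD1 had 0.36 and the death receptor gene TNFRSF10B 0.26. The receptor gene FAS had -0.10, the pore-forming protein gene BAX 0.10 and the executioner caspase gene CASP6 -0.46. In all, 9 of 13 measured death genes lay above the all-gene median and 4 below, with a relative median of 0.12. The BCL2 family as a whole had a relative median of -0.05. In it BNIP3 and BNIP3L, mitophagy receptors that are also hypoxia genes, were at -0.47 and -0.51.

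Repair and metabolism targets had a relative median of 0.14 (8 of 11 above). RRM2B, the ribonucleotide reductase subunit that p53 induces, had 35.8 CPM in Drug and 46.0 CPM in Drug_Radiation, a ratio of 0.35. The nucleotide excision repair genes on this list were flat or lower: DDB2 had 98.1 CPM in both libraries and XPC a ratio of -0.24. Secreted and surface targets had a relative median of 0.17, with all 10 measured members above the all-gene median. GDF15, a stress cytokine, had 268 CPM in Drug, 389 CPM in Drug_Radiation, 128 CPM in Control and 266 CPM in Radiation. Its ratio was 0.53 (0.51 to 0.56) with QTP and 1.05 without. Drug alone and Radiation alone had nearly the same GDF15 level, and Drug_Radiation was the highest of the 4 libraries.

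Genes of G2 phase and mitosis showed the largest list shift. Of 97 listed genes 85 were measured, 81 of them below the all-gene median and 4 above, with a relative median of -0.60. At least 1.5-fold lower were 66 of the 85, beside 2.25% of all genes. Of the 85, 18 reached the minimum of 5 CPM in only 1 of the libraries, beside 445 of all 10305 genes. Members that entered through Drug alone, such as FOXM1 with 6.78 CPM in Drug and 4.18 CPM in Drug_Radiation, favour a lower ratio. They count in the values above. Without QTP the relative median was -0.48, and 66 of 76 genes measured in both comparisons lay below the all-gene median in both.

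The promoters of these genes are shown because they moved as a block and share sequence. RefSeq promoters (GRCh38.p14, 250 bases before to 50 after the annotated start) were matched by symbol for 69 of the 85 genes and searched on both strands for TTTGAA and CCAAT, whose matches can share an end base. TTTGAA was in 65.2% of the 69, against 15.4% of all 27305 promoters and 9.44% of promoters of genes with at least 5 CPM. CCAAT was in 71.0% against 35.7%, and both were in 52.2% against 6.08%. S phase genes held TTTGAA in 8.16% of 49 promoters and p53 targets in 8.51% of 47. Of the genes at least 1.5-fold lower, 27.9% of 111 with a promoter held it, and of those at least 1.5-fold higher, 8% of 25. The lower genes include members of the G2 and mitosis lists, so their share is not separate from the 65.2%. A match is a description of letters and not a binding site. The 100 bases before the start were searched for TTTGAA too, but not for every G2 and mitosis gene. PBK, with a ratio of -1.04, was left out of this search. Of the genes searched, 19 hold TTTGAA in that stretch. The stretch, 5′ to 3′ on the gene's strand, is given for the 4 of these 19 with the lowest ratios. These are NCAPG, HMMR, MKI67 and CKAP2L, and the stretch is also given for PLK1 and CDC20. Capitals mark TTTGAA or its reverse complement TTCAAA.
NCAPG: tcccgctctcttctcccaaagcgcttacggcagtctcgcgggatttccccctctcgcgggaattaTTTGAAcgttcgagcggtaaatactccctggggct
HMMR: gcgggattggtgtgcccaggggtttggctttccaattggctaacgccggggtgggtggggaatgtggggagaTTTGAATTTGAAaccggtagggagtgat
MKI67: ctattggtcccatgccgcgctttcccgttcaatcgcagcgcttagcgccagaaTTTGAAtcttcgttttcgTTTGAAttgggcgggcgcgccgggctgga
CKAP2L: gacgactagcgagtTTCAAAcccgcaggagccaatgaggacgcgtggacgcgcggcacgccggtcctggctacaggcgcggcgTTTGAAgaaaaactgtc
PLK1: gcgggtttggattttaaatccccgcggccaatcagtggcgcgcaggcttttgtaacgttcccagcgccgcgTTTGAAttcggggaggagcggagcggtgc
CDC20: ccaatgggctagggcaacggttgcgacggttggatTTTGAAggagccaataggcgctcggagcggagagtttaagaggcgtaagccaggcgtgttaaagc
These stretches lie at chr4:17810879-17810978 (plus strand), chr5:163460532-163460631 (plus), chr10:128126424-128126523 (minus), chr2:112764610-112764709 (minus), chr16:23678789-23678888 (plus) and chr1:43358881-43358980 (plus). HMMR and MKI67 each hold TTTGAA at 2 places on the gene's strand. In PLK1 it begins 29 bases before the start, with 1 CCAAT upstream of it, and in NCAPG 35 bases before, with no CCAAT in the stretch.

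Mitotic entry genes had a relative median of -0.46, with 16 of 17 below the all-gene median. CCNB1, the mitotic cyclin B1, had 63.2 CPM in Drug and 36.4 CPM in Drug_Radiation, and 58.8 CPM in Control and 41.8 CPM in Radiation. Both irradiated libraries were below both that were not irradiated. Its kinase partner CDK1 had 46.5 CPM in Drug and 27.4 CPM in Drug_Radiation, a ratio of -0.74 (-0.83 to -0.70). CCNA2 (cyclin A2) had -0.87, the polo kinase PLK1 -0.72 and CDC25C, the phosphatase that activates CDK1, -0.77. CDKN3, a phosphatase of cyclin-dependent kinases, had 42.5 CPM in Drug and 19.4 CPM in Drug_Radiation, a ratio of -1.09 (-1.203 to -1.06).

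Kinetochore genes were lowest as a class, with all 22 measured below the all-gene median and a relative median of -0.66. CENPF, a large protein of the outer kinetochore, had 13.7 CPM in Drug and 5.805 CPM in Drug_Radiation, a ratio of -1.11. NUF2, which binds spindle microtubules, had -1.17, the kinesin CENPE -1.03, the checkpoint kinases TTK and BUB1 -1.01 and -0.98, and CENPN -1.004. Spindle and motor genes had a relative median of -0.56. The cytokinesis kinesin KIF20A had 23.0 CPM in Drug and 10.2 CPM in Drug_Radiation, and KIF20B was at -0.95. HMMR, a spindle protein whose promoter is printed above, was at -0.90, and RACGAP1, of the central spindle, at -0.87.

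Chromosome structure and segregation genes had a relative median of -0.62. TOP2A, the topoisomerase that untangles chromosomes, had 64.9 CPM in Drug, 37.6 CPM in Drug_Radiation, 72.1 CPM in Control and 44.3 CPM in Radiation. Again both irradiated libraries were below the other pair. HMGB2, a chromatin protein, went from 143 to 70.0 CPM, the survivin gene BIRC5 from 57.9 to 28.8 CPM and the securin gene PTTG1 from 109 to 56.3 CPM. MKI67, the Ki-67 antigen, was at -0.87, and the condensin subunits NCAPG, NCAPH, SMC2 and SMC4 at -0.98, -0.97, -0.85 and -0.79. The 2 exceptions on this list were UBE2S, an enzyme of the anaphase-promoting complex (0.23), and the separase gene ESPL1 (0.12), both chosen for mention after their values were seen. ESPL1 holds TTTGAA in the same stretch of its promoter.

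**Figure D2:**
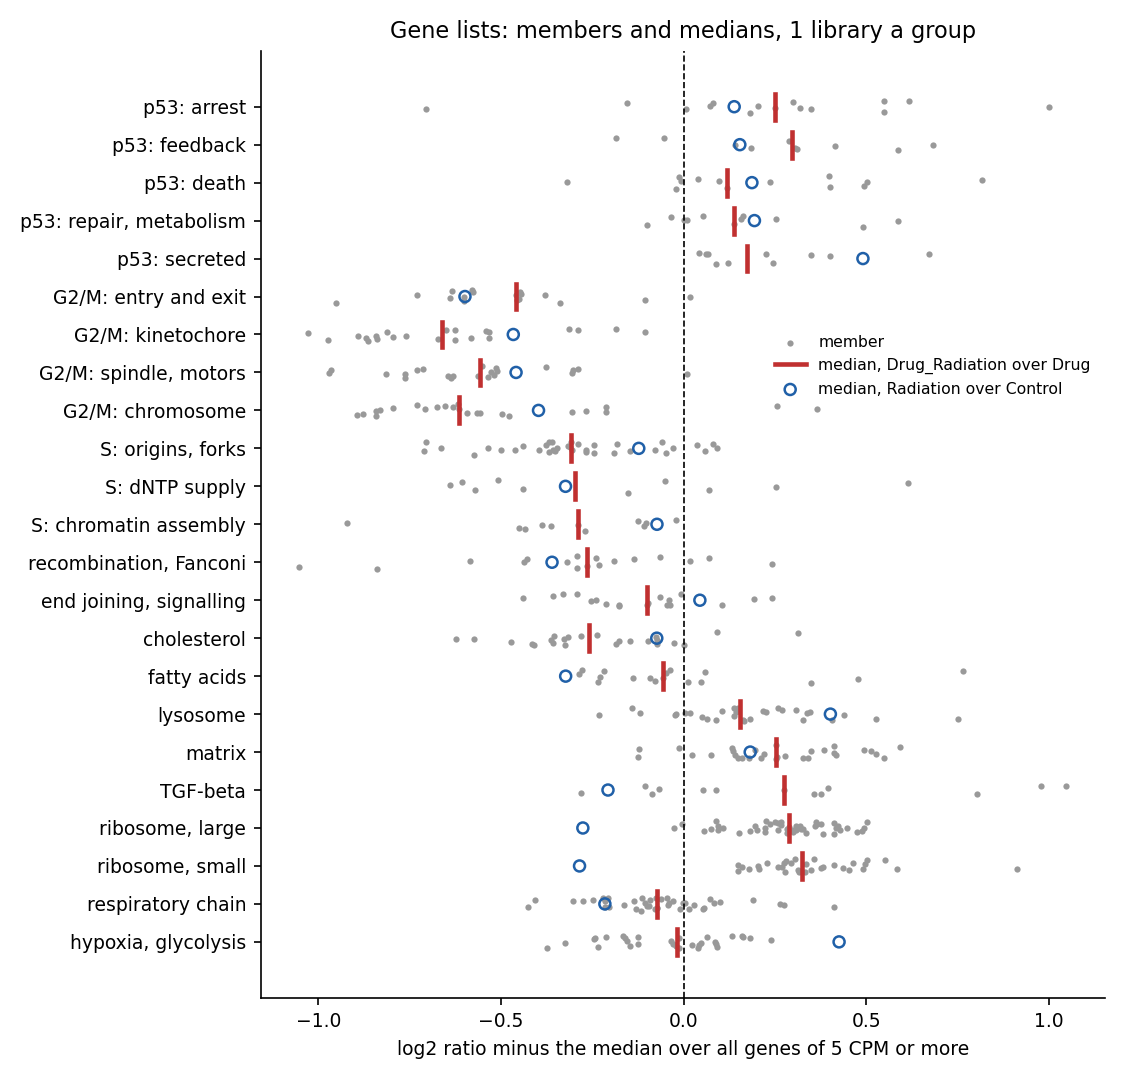
Each row is a gene list, each grey point a measured member, with its log2 ratio of Drug_Radiation over Drug minus the median over all genes of 5 CPM or more. Red bars are list medians and blue circles the same median for Radiation over Control: the G2 and mitosis lists are left of 0 in both, while the ribosomal lists are at 0.29 and 0.32 with QTP and at -0.28 without.

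S phase genes were lower by a smaller amount. Of 65 genes 57 were measured, with 50 below and 7 above the all-gene median, a relative median of -0.31 and 13 at least 1.5-fold lower, beside 2.25% of all genes. Among origin and fork genes, DBF4, the activator of the CDC7 kinase, had 25.6 CPM in Drug and 13.7 CPM in Drug_Radiation, and the primase subunit PRIM1 had -0.85 and the checkpoint mediator CLSPN -0.80. PCNA, the sliding clamp and also a p53 target, was at 281 and 250 CPM, a ratio of -0.17 that lies at the median gene, and MCM2, of the replicative helicase, was at -0.19.

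The enzymes that supply deoxynucleotides split. TK1, thymidine kinase, had -0.78, RRM2, the S phase subunit of ribonucleotide reductase, -0.75 and DUT, which removes dUTP, -0.71. TYMS, thymidylate synthase, instead had 39.5 CPM in Drug and 42.9 CPM in Drug_Radiation, a ratio of 0.11 (0.06 to 0.18) that was -0.18 among cells of 6500 to 15000 UMIs, against 55.1 CPM in Control and 24.2 CPM in Radiation. TYMS was thus lowest in Radiation, and the direction between the libraries with QTP turned with the cells compared. PCLAF, the PCNA-binding factor on the chromatin assembly list, had 141 CPM in Drug and 67.1 CPM in Drug_Radiation, a ratio of -1.06 (-1.11 to -1.03). All 11 measured genes of that list were below the all-gene median.

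Genes of G1 control did not move as a block. The RB and E2F list had a relative median of 0.09 and the list of G1 cyclins, their kinases and CDK inhibitors 0.02. CCND1 (cyclin D1) had 112 CPM in Drug and 121 CPM in Drug_Radiation, while CCNE2 had -0.55 and the inhibitor gene CDKN2C -0.72.

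Homologous recombination and Fanconi genes, which mend breaks and crosslinks during S and G2 phase, had a relative median of -0.26, with 14 of 17 measured below the all-gene median. The list holds 30 genes, so 13 were too low to be measured. MND1, a recombination cofactor, had 18.5 CPM in Drug and 8.90 CPM in Drug_Radiation, a ratio of -0.98. FANCI was at -0.72, UBE2T at -0.58 and BRCA1 at -0.46. End-joining and damage-signalling genes, which act in all phases, had a relative median of -0.10 with 16 of 19 below, from XRCC4 at -0.58 and PARP1 at -0.50 to TP53BP1 at 0.10.

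The same differences were sought cell by cell. Each cell was thinned at random to 6000 UMIs, which left out no cell, since the shallowest kept held 6244. Cells with at least 1% of their UMIs from G2 and mitosis genes were 209 of 3802 in Drug, a share of 5.50% (4.79 to 6.27), and 125 of 6990 in Drug_Radiation, a share of 1.79% (1.49 to 2.13). This class is a range on a scale and not a cell type: 143 and 137 cells lay between 0.8% and 1.2%. The limits of both intervals do not meet, but cells of 1 library are not replicates of a treatment. For S phase genes the class held 19 cells (0.50%) in Drug and 4 cells (0.057%) in Drug_Radiation.

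Cells rich in mitosis genes were then chosen with 49 of the 97 genes and measured with the other 48, so that choice and measurement did not share genes. The chosen cells, with at least 0.5% of UMIs in the 49 genes, were 6.44% of Drug and 2.30% of Drug_Radiation. Inside them the other 48 genes had 6375 CPM in Drug and 5673 CPM in Drug_Radiation, a log2 ratio of -0.17. In the remaining cells they had 713 and 548 CPM, a ratio of -0.38. Of the cells, 140 in Drug and 154 in Drug_Radiation lay near the limit, and since the limit sets a floor for genes that go together, the level inside the chosen cells is not independent of it. CDKN1A was higher in Drug_Radiation in both classes, with ratios of 0.38 in the chosen cells and 0.50 in the rest, as was MDM2 with 0.77 and 0.60. The chosen cells were only 245 in Drug and 161 in Drug_Radiation. Of them, 71.4% (65.3 to 77.0) and 75.8% (68.4 to 82.2) had a CDKN1A UMI, so these intervals met. In the remaining cells the shares were 73.8% (72.3 to 75.2) and 85.4% (84.6 to 86.3).

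Fewer Drug_Radiation cells lacked CDKN1A. In cells thinned to 6000 UMIs it had no UMI in 26.4% of Drug cells (24.96 to 27.8) and 14.8% of Drug_Radiation cells (13.97 to 15.6). Cells with 5 to 9 CDKN1A UMIs were 8.05% and 15.2%, and those with 10 or more were 0.84% and 1.29%. The last class held only 32 cells of Drug and 90 of Drug_Radiation, so its levels rest on few cells. GDF15 had 158 CPM in Drug cells without a CDKN1A UMI and 2044 CPM in those with 10 or more, and 211 and 2378 CPM in the same classes of Drug_Radiation. G2 and mitosis genes summed to 2190 and 1918 CPM in those classes of Drug and to 1543 and 986 CPM in those of Drug_Radiation. In cells with 1 to 4 CDKN1A UMIs they summed to 2311 CPM in Drug and 1372 CPM in Drug_Radiation. With 5 to 9 the sums were 1986 and 1133 CPM, so in each CDKN1A class they were lower in the irradiated library. As background, markers of absent cell types had a UMI in few thinned cells: PTPRC in 0.13% and 0.11%, EPCAM in 0.053% and 0.13%, and PECAM1 in 0.26% and 0.24%.

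**Figure D3:**
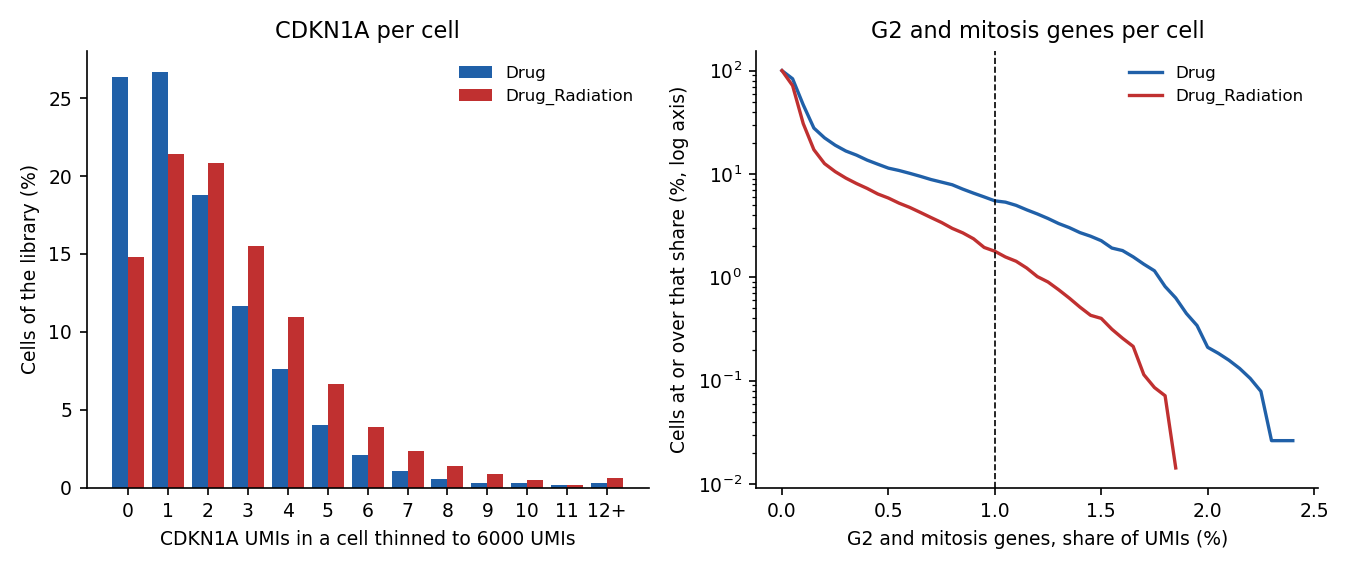
Left, percent of cells by number of CDKN1A UMIs after thinning each cell to 6000 UMIs, blue Drug (3802 cells) and red Drug_Radiation (6990 cells), with more red cells from 2 UMIs upward. Right, percent of cells (log axis) at or above a given share of UMIs from G2 and mitosis genes, where at the dashed line of 1% the values are 5.50% and 1.79%.

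Cells were also compared within 4 classes of UMIs per cell, in which medians of UMIs still differed, for example 8801 in Drug and 9648 in Drug_Radiation in the shallowest. The p53 list had relative medians of 0.23, 0.23, 0.23 and 0.17 from the shallowest class to the deepest. CDKN1A itself had log2 ratios of 0.64, 0.61, 0.49 and 0.24, smaller in deeper cells. The G2 and mitosis list had -0.62, -0.39, -0.65 and -0.50, and the share of cells at 1% or more was lower in Drug_Radiation in each class, for example 7.88% (6.49 to 9.46) against 2.56% (1.93 to 3.33) among cells of 20000 to 35000 UMIs. In the shallowest class the intervals of the share met, at 2.76% (1.64 to 4.33) and 1.198% (0.71 to 1.89). The S phase list had no shift among cells of 12000 to 20000 UMIs, at -6.37e-05, and -0.26 to -0.39 in the other classes. The recombination list was likewise nearest to 0 in that class, at -0.09, and at -0.25 to -0.37 in the others.

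**Figure D4:**
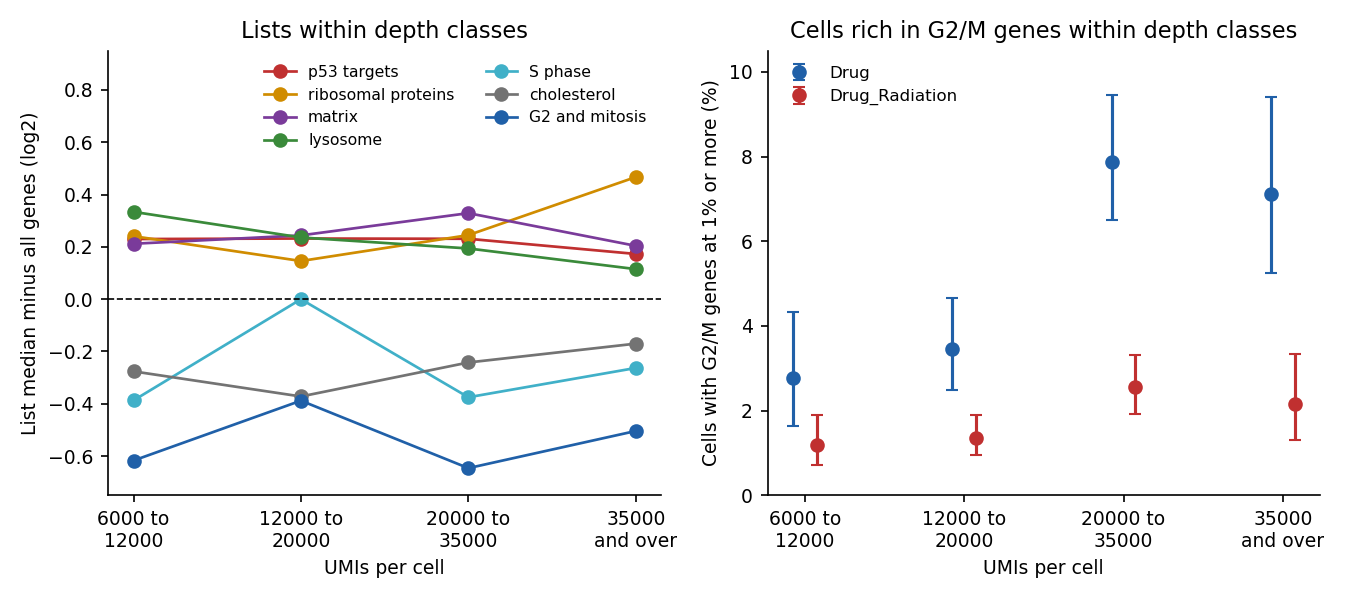
Left, relative medians (log2) of 7 gene lists within 4 classes of UMIs per cell. Right, percent of cells with at least 1% of UMIs from G2 and mitosis genes in the same classes with exact 95% intervals for counting error, blue Drug and red Drug_Radiation, where red is below blue in each class.

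Cytosolic ribosomal protein genes were higher in Drug_Radiation relative to other genes almost without exception. Of 79 genes 77 lay above the all-gene median, with a relative median of 0.31, and 71 had a ratio above 0. The sum over the list was 279500 CPM in Drug and 321000 CPM in Drug_Radiation. RPS2 had 1597 CPM in Drug and 2730 CPM in Drug_Radiation, a ratio of 0.77, followed by RPS14 at 0.44 and RPS29 at 0.41. Without QTP the list went the other way, with 371900 CPM in Control, 330600 CPM in Radiation and a relative median of -0.28. Because this list takes so large a share of all UMIs, a higher sum lowers the CPM of other genes. With the total taken without these genes, 84 genes were at least 1.5-fold higher and 82 lower. Ribosomal protein genes have many near-identical copies, so single values are uncertain. Translation factors had a relative median of 0.02, and PABPC1 stood far from the rest of them.

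Cholesterol synthesis and uptake genes were lower in Drug_Radiation. Of 24 measured genes 21 lay below the all-gene median and 3 above, with a relative median of -0.26 and a sum of 3004 CPM in Drug and 2291 CPM in Drug_Radiation. SQLE, squalene epoxidase, had 152 CPM in Drug and 92.3 CPM in Drug_Radiation, a ratio of -0.71 (-0.76 to -0.69), and 68.3 CPM in Control and 76.5 CPM in Radiation. Both libraries with QTP were above both without, and Drug was the highest. HMGCS1, an early enzyme of the pathway, followed the same order with 106, 77.2, 32.6 and 36.9 CPM in Drug, Drug_Radiation, Control and Radiation. HSD17B7 was at -0.76, ACAT2 at -0.61, EBP at -0.55 and IDI1 at -0.50. The list summed to 1419 CPM in Control and 1465 CPM in Radiation. In thinned cells SQLE had a UMI in 54.5% of Drug cells (52.95 to 56.1) and 40.4% of Drug_Radiation cells (39.2 to 41.5).

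Fatty acid genes had a relative median of -0.06, with 6 of 17 above the all-gene median and 11 below. FASN, fatty acid synthase, had 39.2 CPM in Drug and 60.9 CPM in Drug_Radiation, a ratio of 0.62 (0.58 to 0.69), while in Control and Radiation it had 30.3 and 19.95 CPM. FASN was highest in Drug_Radiation and lowest in Radiation, and its ratio was 0.24 among cells of 6500 to 15000 UMIs. SREBF1, a regulator of lipid genes, had 0.34, and SCD, the stearoyl-CoA desaturase, -0.28. The lowest members were LPIN1, which makes diacylglycerol, at -0.43 and the malic enzyme gene ME1 at -0.42. Lysosome genes had a relative median of 0.16, with 25 of 30 above the all-gene median and CTSZ, a cathepsin, highest at 0.61.

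Matrix genes were higher relative to others, with 27 of 30 above the all-gene median and a relative median of 0.25. COL6A1, a chain of collagen VI, had 144 CPM in Drug and 191 CPM in Drug_Radiation, a ratio of 0.41, and 79.5 CPM in Control and 151 CPM in Radiation. COL18A1 was at 0.45, the procollagen protease gene BMP1 at 0.39 and COL6A2 at 0.37. MMP2, a gelatinase, had 34.03 CPM in Drug and 48.99 CPM in Drug_Radiation, a ratio of 0.51 (0.46 to 0.59). Proteases and their inhibitors had a relative median of 0.28 with 12 of 14 above.

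The TGF-beta list had a relative median of 0.28, with 9 of 13 above, and 0.088 among protein-coding genes with no named copy. The highest members were genes of the latent ligand. LTBP3 and LTBP4, which hold latent TGF-beta in the matrix, had 24.8 and 12.8 CPM in Drug and 47.5 and 23.6 CPM in Drug_Radiation, ratios of 0.91 and 0.84. TGFB1, the ligand, had 18.8 CPM in Drug and 30.4 CPM in Drug_Radiation, a ratio of 0.66. These 3 of 13 measured genes were at least 1.5-fold higher, where 0.786% of all genes were. Without QTP they had ratios of -0.09, -0.14 and 0.24. The receptor TGFBR2 and the mediator SMAD3 were at 0.22 and 0.25, and the target genes ID1 and ID3, named after their values were seen, were at -0.42 and -0.24. LTBP3 had a UMI in 13.7% of thinned Drug cells (12.6 to 14.8) and 24.2% of Drug_Radiation cells (23.2 to 25.2). Notch and Wnt genes had a relative median of 0.26, with NOTCH1 at 0.41, its ligand JAG2 at 0.39 and the target HES1 at 0.29, and the list's median was 0.037 among cells of 6500 to 15000 UMIs.

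Lists of other stress programs stayed near the median gene. Relative medians were -0.03 for the integrated stress response, 0.08 for endoplasmic reticulum folding, -0.02 for hypoxia and glycolysis, -0.03 for heat shock, 0.07 for NRF2 targets, -0.03 for interferon genes, 0.05 for cytokines and -0.03 for MHC class I. Some members stood out: CEBPB, a stress transcription factor, was at 0.64, SYVN1, a ligase of endoplasmic reticulum degradation, at 0.68, EGR1, an immediate early factor, at 0.59, the serine synthesis enzyme PHGDH at -0.71 and the chemokine CXCL8 at -0.71. The metallothionein MT2A, a metal-binding protein, had 1936 CPM in Drug and 2576 CPM in Drug_Radiation, a ratio of 0.41, and 0.45 without QTP. CALB2 was at -0.60 and KRT7 at -0.69. Of 23 receptors for dopamine, serotonin, histamine and adrenaline 2 were measured, HTR1D and HRH1, and DRD2 had 17 UMIs in Drug and 11 in Drug_Radiation, 0.20 and 0.078 CPM.

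The genes with the highest ratios, PLXDC1 and TMEM108, are on none of the lists. PLXDC1, a cell surface protein gene on chromosome 17 from 39063303 to 39154394, had 1.28 CPM in Drug and 45.6 CPM in Drug_Radiation, and 1.90 CPM in Control and 1.40 CPM in Radiation. TMEM108, on chromosome 3 from 133038391 to 133397792, had 2.67 CPM in Drug, 48.6 CPM in Drug_Radiation, 2.91 CPM in Control and 2.16 CPM in Radiation. Drug_Radiation alone was high in both genes. Their ratios were 4.35 and 3.76, with intervals of 4.88 to 5.43 and 4.00 to 4.38 for the ratios without the added 1 CPM.

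PLXDC1 and TMEM108 were spread over the Drug_Radiation library rather than held by a few cells. In Drug_Radiation 23.7% and 23.0% of thinned cells had a UMI of them, and 5.42% had both, close to the product of the shares, 5.45%. The 10 cells with most UMIs held 1.08% and 2.40% of the UMIs of these genes. In Drug, 0.87% of thinned cells had a UMI of PLXDC1 and 0.87% one of TMEM108, and the 233 UMIs of TMEM108 came from 89 cells. There the 10 cells with most UMIs held 23.2% of the UMIs of PLXDC1 and 51.9% of those of TMEM108. ELOVL7, a fatty acid elongase, was likewise highest in Drug_Radiation, at a lower level. It had 6.17 CPM in Drug and 20.5 CPM in Drug_Radiation, and 7.38 and 6.70 CPM in Control and Radiation.

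In a group of the highest genes, Drug was instead the lowest library, and Control was above Radiation. KIAA0825 had 768 CPM in Drug, 3152 CPM in Drug_Radiation, 2930 CPM in Control and 1566 CPM in Radiation. AKAP6, a kinase anchor of the nuclear envelope, had 314, 1485, 1124 and 463 CPM in the same order. CPA6, a carboxypeptidase, had 66.4, 388, 433 and 191 CPM, and PCBD2, a cofactor-recycling enzyme, 50.4, 210, 119 and 72.5 CPM. In each of these genes radiation went with a higher level under QTP and a lower one without it. Control and Radiation were shallower, and levels differed with depth inside a library. Within Drug, KIAA0825 had 1213 CPM in cells of 6000 to 12000 UMIs and 597 CPM in cells of 35000 or more. AKAP6 had 469 and 252 CPM in these cells. The part of depth in the order of the libraries was not tested. In Radiation over Control, 14.8% of 4818 genes of at least 20 CPM were at least 1.5-fold higher and 3.45% at least 1.5-fold lower. Of 4715 genes of at least 20 CPM in both comparisons, 18 (0.382%) were past 1.5-fold in opposite directions. The antisense gene KIF5C-AS1 had 14.99, 110, 45.1 and 29.7 CPM. The strand counted is not given in the sources used here, so reads of an antisense gene and of its partner cannot be told apart.

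KIAA0825, AKAP6 and PCBD2 overlap copies of mitochondrial genes that lie in the nuclear genome, as annotated in GENCODE 29. Of 5476 genes of at least 20 CPM with a symbol of their own 8 overlap such a copy (0.146%), and 3 of these 8 are among the 20 with the highest ratios. The median ratio of the 8 was -0.12. MTRNR2L1 and MTRNR2L12, which resemble the mitochondrial 16S ribosomal RNA gene, were at 1.247 and 1.35. All 13 mitochondrially encoded genes were higher in Drug_Radiation, with log2 ratios from 0.17 to 0.80 and a median of 0.40, against 9 of 13 higher in Radiation over Control. MT-ATP8 and MT-ND4L had the highest ratios. Within classes of mitochondrial share the difference remained: KIAA0825 had 667 CPM in Drug and 2473 CPM in Drug_Radiation among cells under 4%, and 1292 and 4067 CPM among cells of 6% to 20%. The part of read placement in these ratios was not tested.

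Small nucleolar RNA hosts formed another subset. CSKMT, whose span holds SNORA57, had 86.2 CPM in Drug, 271 CPM in Drug_Radiation, 135 CPM in Control and 66.6 CPM in Radiation. SNHG25, the host of SNORD104 and SNORA50C, had 200, 436, 352 and 194 CPM in that order, and PABPC4, which holds SNORA55, had 118, 217, 247 and 152 CPM. These are 3 of the 20 highest genes, beside 3.41% of the 5476. PABPC1, the poly(A)-binding protein gene, had 1460 CPM in Drug, 2812 CPM in Drug_Radiation, 2978 CPM in Control and 2168 CPM in Radiation, and it too has near-identical copies.

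**Figure D5:**
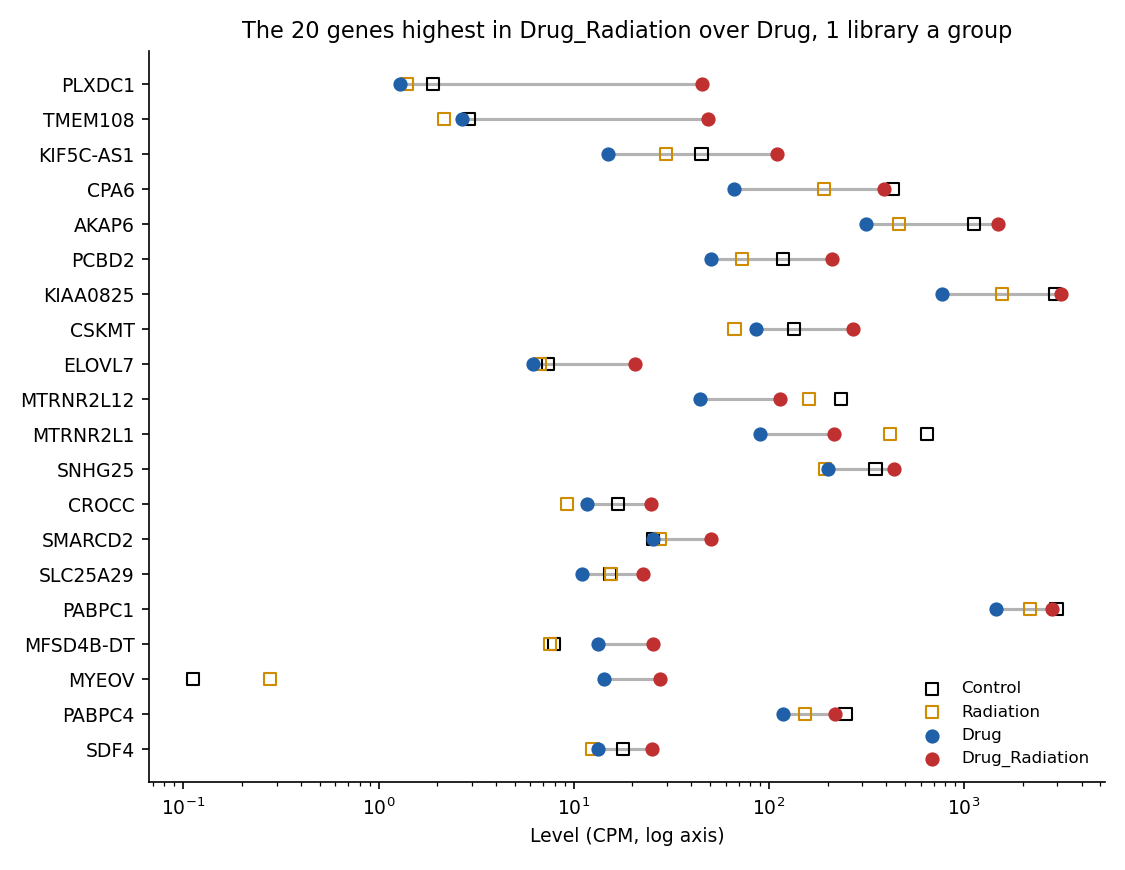
Levels (CPM, log axis) of the 20 genes with the highest ratio of Drug_Radiation over Drug in all 4 libraries, 1 library a group, with filled circles for libraries with QTP and open squares for those without. PLXDC1 and TMEM108 are high in Drug_Radiation alone, while KIAA0825, AKAP6 and CPA6 have Control closer to Drug_Radiation than to Drug.

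Of the 20 genes with the lowest ratios among those of at least 20 CPM, most are the division genes described above, KIF20A being the lowest at -1.10. Among the others, MALAT1, an abundant RNA that stays in the nucleus, had 1015 CPM in Drug, 581 CPM in Drug_Radiation, 824 CPM in Control and 1304 CPM in Radiation. Its ratio was -0.80 (-0.82 to -0.79) with QTP and 0.66 without, so Drug_Radiation was the lowest of the 4 libraries and Radiation the highest. NEAT1, another nuclear RNA, had 200 CPM in Drug and 206 CPM in Drug_Radiation, a ratio of 0.04 that was -0.29 among cells of 6500 to 15000 UMIs. MALAT1 was lower in Drug_Radiation in all 4 depth classes, by log2 ratios of -0.85 to -0.88. SRD5A2, a steroid reductase, had 40.3 and 21.7 CPM in the libraries with QTP and 299 and 122 CPM in Control and Radiation, with ratios of -0.86 and -1.29. PEG10, a gene of retroviral origin, was at -0.80 and the histidine methyltransferase gene SETD3 at -0.80.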

How the data were processed

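Single-cell RNA was measured in 4 libraries of MSTO-211H, 1 per group. Per the labels, a PIPseq V T2 3′ kit was used, while another label text names 10x Genomics. The deposited values are raw UMI counts per gene and barcode, with no normalization by the authors recorded. The submitters' processing notes name the build hg38 and the tool Seurat 4.3.3 without a role. For the aligner, the counting program, its strand setting, the annotation and the calling of barcodes, the entry is: not given in the sources used here. Positions come from GENCODE 29, which holds 92.0% of 37468 features.

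Kept cells had at least 500 UMIs, 300 genes and under 20% mitochondrial UMIs. This left out 4 of 3806 barcodes in Drug and 16 of 7006 in Drug_Radiation, all for the mitochondrial limit. Doublets were neither called nor removed. Counts were summed per library, scaled to nuclear-encoded totals and compared as log2 of CPM plus 1. Mitochondrially encoded genes were instead scaled to all UMIs kept, with nothing added. Intervals are exact: Poisson for CPM, conditional binomial for ratios (without the added 1) and Clopper-Pearson for shares. The ratio and thinning steps were tested on simulated data. With 1 library a side no test was made. Scaling alternatives used edgeR 4.0.16 (TMM) and DESeq2 1.42.0. Python 3.11.15 was used.

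Named genes were the 20 highest and 20 lowest ratios among genes of at least 20 CPM (without mitochondrial genes, named copies and genes lacking their own symbol), up to 6 members of each list farthest from the median of all genes, and a fixed set. Outside this rule, RCHY1, XPC, UBE2S, ESPL1, CKAP2L, WT1, FCGR3A, PTPRC, EPCAM, PECAM1, ID1, ID3, MT-ATP8 and MT-ND4L were named after values were seen. The members and the lists were chosen with earlier results of these data known. A list median needs 5 measured members. Some members of the lists are counted in them but are not reported here by name.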

Additional observations from a re-analysis of the deposited data

Results flagged for a closer look

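Of 72 named genes, 11 were past 1.5-fold in opposite directions for radiation with QTP and radiation without it. Of all 4715 genes of at least 20 CPM in both comparisons 18 were (0.382%). All 11 are among the 40 genes named for the highest or lowest ratio with QTP, so the count rests on genes chosen by 1 of the compared values. The difference of the ratios, with QTP minus without, was 3.70 for CPA6, 3.52 for AKAP6, 3.39 for KIF5C-AS1, 2.94 for KIAA0825, 2.74 for PCBD2 and 2.65 for CSKMT. It was 1.97 for SNHG25, 1.88 for MTRNR2L1, 1.83 for CROCC and 1.57 for PABPC4. These 10 genes were higher with radiation under QTP and lower with radiation without it. MALAT1 had the opposite pattern, with a difference of -1.46. With 1 library in each of the 4 groups the differences were not tested. The ratios without QTP also compare libraries of unlike depth, with medians of 2318 UMIs per cell in Control and 5299 in Radiation.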

How the results depend on the processing

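Counts of genes at least 1.5-fold higher, 1.5-fold lower, 2-fold higher and 2-fold lower moved with the scaling and the minimum level. They were 89, 32, 27 and 0 with TMM scaling, 83, 34, 27 and 0 with DESeq2 scaling, and 125, 273, 25 and 15 with no minimum. TMM and DESeq2 scaling shift every ratio by 0.18 and 0.173. With the total taken without ribosomal protein genes, 84 were at least 1.5-fold higher and 82 lower. With 5 CPM added, 76 were at least 1.5-fold lower and 1 was 2-fold lower. With a minimum of 50 CPM, 22 and 64 were at least 1.5-fold higher and lower and 2 were 2-fold lower.

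Relative medians of lists, recomputed under each alternative, stayed inside the interval of the median over the list's members in 690 cases and left it in 66. In 3 more, a list whose interval lay on 1 side of 0 changed sign, and over all lists the sign differed in 45 cases. With no minimum the p53 role lists had 0.111 (arrest), 0.182 (feedback), 0.0159 (death), 0.0234 (repair) and 0.0591 (secreted). In cells of 6500 to 15000 UMIs they were 0.324 for lysosome, 0.154 for matrix, -0.214 for S phase and 0.230 for ribosomal protein genes, and -0.141 for EGF receptors and ligands, against 0.12 over all cells. With no minimum they were 0.0398 for lysosome, 0.131 for matrix, 0.0509 for p53 targets, -0.682 for G2 and mitosis, -0.405 for S phase, 0.19 for ribosomal protein genes, and -0.00221 and -0.0287, of the opposite sign, for EGF receptors and endoplasmic reticulum genes. The ribosomal list had 0.2471 after thinning, 0.2465 with equal weight per cell and 0.362 with a minimum of 50 CPM. The G2 and mitosis list had -0.643 with 0.1 CPM added and -0.449 with 5 CPM added, where the S phase list had -0.241.

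The share of cells rich in G2 and mitosis genes was 3.03% in Drug and 1.145% in Drug_Radiation among cells of 6500 to 15000 UMIs, 11.4% and 5.85% with a limit of 0.5% of UMIs, and 0.210% and 0% with 2%. For S phase genes it was 10.8% and 5.06% with 0.5%, and 0% and 0% with 2%. In Drug it was 0.293% among cells of 6500 to 15000 UMIs and 0.158% without thinning. Single named genes moved by more than their counting error in 322 cases and by less in 398. The causes of these moves were not tested. No paired analysis was possible because each group is 1 library.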
